A study of Mus musculus with 6 samples.

Results

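Genes of the interferon response and of innate sensing were followed in mouse CD4+ T cells given tunicamycin. They were chosen by gene symbol alone: families named Ifi, Ifit, Ifitm, Irf, Gbp, Oas, Isg, Stat, Tlr, Trim and Slfn, the immunity-related GTPases Irgm, Igtp and Iigp, and Rsad2, Mx1, Mx2, Rtp4 and Zbp1, without pseudogene symbols. Of 13685 rows in the deposited table, 56 matched. The tunicamycin group was 3 libraries of WT cells cultured for 4 h with tunicamycin at 0.15 µg/mL, and the vehicle group was 3 libraries of WT cells whose titles say no treatment and whose protocol says vehicle. Both groups came from C57BL/6 spleen and mesenteric lymph node, were isolated as CD4+ cells and were CD25-negative, so depleted of regulatory T cells. Tunicamycin inhibits N-linked glycosylation in the endoplasmic reticulum and so provokes the unfolded protein response; the comparison asks how transcript levels respond to it. The submitters call the 3 libraries of each group technical replicates. Whether they came from separate animals or cultures is not stated, so every p-value here reflects library-to-library spread, which may be technical.

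Interferons are secreted proteins that warn cells of infection. Type I interferons and interferon gamma bind separate receptors, whose JAK kinases activate STAT factors. The activated STAT complexes bind 2 kinds of DNA element, the interferon-stimulated response element (ISRE) and the gamma-activated site (GAS), and switch on genes whose products bind viral RNA, tag proteins, or attack the vacuoles in which microbes live. Toll-like receptors and cytosolic sensors lie upstream, where they detect microbial molecules and start interferon production. Resting T cells hold a basal level of many interferon-induced transcripts.

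The table held a row for 56 of 172 protein-coding genes with a matching symbol in GENCODE M21, or 32.6%. The share was 67.6% of the 34 with 1 annotated transcript and 2.56% of the 39 with 6 or more, so the families are seen through their simpler genes. The 3 Irf matches encode IRF2-binding proteins rather than interferon regulatory factors, and no Stat gene, Mx gene, Rsad2 or Zbp1 was among the rows; these were not analysed here. Of the 56 genes, 14 had 0 counts in every library, 12 had counts but too few to be tested, and 30 passed the filter on low counts. The rows summed to between 7412151 and 11211270 estimated counts per library. The cells carried T cell transcripts, with Cd3d at 232 to 245 TPM and Trbc2 at 1338 to 1578 TPM. The B cell marker Cd79a stayed at or under 1.13 TPM and the CD8 T cell marker Cd8b1 lay at 9.47 to 11.9 TPM. Cd4 itself was not analysed here.

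Promoter sequences of RefSeq on GRCm38.p6 were available for 24 of the 30 tested genes, and the 250 bases before each start site were searched for 2 motifs. The ISRE was read as GAAA, any 2 bases and GAAA, or on the other strand TTTC, any 2 bases and TTTC, and matches could overlap. Of 28 promoters of these genes, 13 held a match, or 46.4%, against 2.98% of all 32851 promoters searched. The 12 genes were Gbp5, Ifi205, Ifi206, Ifit1, Ifit1bl1, Ifit1bl2, Ifit3, Igtp, Irgm1, Irgm2, Isg15 and Tlr6. The GAS was read as TTC, any 3 bases and GAA, which is the same on both strands, and was found in 4 of the 28 promoters, or 14.3%, against 7.02% of all promoters, in Gbp5, Igtp, Irf2bp1 and Irgm2. A match is a description of letters, not a measured binding site. The 130 bases before the start site are shown for 7 genes whose levels are described below, in the direction of the gene on GRCm38.p6 with ISRE matches in capitals. Start sites are those of RefSeq, and the ones used for Tlr6, Irgm2, Irgm1 and Ifit1 lie inside the GENCODE gene models. The one used for Ifi206 lies upstream of its model. Tlr6 has another RefSeq promoter upstream, without an ISRE match in its 250 bases.
Irgm1, chr11:48871421-48871550, minus strand: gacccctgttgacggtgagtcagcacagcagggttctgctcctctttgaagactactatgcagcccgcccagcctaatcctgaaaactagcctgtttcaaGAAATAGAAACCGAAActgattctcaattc
Irgm2, chr11:58214847-58214976, plus strand: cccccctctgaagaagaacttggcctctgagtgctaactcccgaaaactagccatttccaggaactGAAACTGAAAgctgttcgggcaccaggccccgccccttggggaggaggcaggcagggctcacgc
Igtp, chr11:58199426-58199555, plus strand: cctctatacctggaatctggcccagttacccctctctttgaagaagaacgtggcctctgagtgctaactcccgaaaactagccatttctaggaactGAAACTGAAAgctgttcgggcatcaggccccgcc
Isg15, chr4:156200819-156200948, minus strand: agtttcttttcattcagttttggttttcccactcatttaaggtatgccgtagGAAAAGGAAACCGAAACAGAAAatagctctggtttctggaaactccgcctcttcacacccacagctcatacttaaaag
Ifit1, chr19:34640759-34640888, plus strand: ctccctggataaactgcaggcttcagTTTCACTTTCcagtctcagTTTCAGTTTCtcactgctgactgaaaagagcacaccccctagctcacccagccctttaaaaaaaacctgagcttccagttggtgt
Ifi206, chr1:173491319-173491448, minus strand: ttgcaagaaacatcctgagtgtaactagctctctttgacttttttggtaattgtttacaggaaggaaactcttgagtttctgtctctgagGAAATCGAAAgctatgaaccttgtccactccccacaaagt
Tlr6, chr5:64959167-64959296, minus strand: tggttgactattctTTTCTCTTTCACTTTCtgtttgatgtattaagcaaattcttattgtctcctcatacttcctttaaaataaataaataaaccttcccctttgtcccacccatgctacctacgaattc

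The Igtp and Irgm2 promoters are close relatives, with a longest shared run of 55 of 250 bases. In Isg15, 3 matches begin 78, 72 and 66 bases before the start site, each overlapping the next. Ifit1 and Ifit1bl2 are transcribed away from each other from the same stretch of chromosome 19, so the matches counted for them are the same DNA read on opposite strands.

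After 4 h of tunicamycin, 0 of the 30 tested genes had risen or fallen past the threshold. TPM, a relative abundance that allows for gene length, is used for levels, and counts scaled to library size (CPM) for comparing groups in the test. Significance was judged with edgeR's quasi-likelihood test at an adjusted p of 0.05 over 3613 genes, of which 0.0830% passed, 0.0554% as higher and 0.0277% as lower in tunicamycin. DESeq2 and limma on log2(TPM + 1) also called 0. At an unadjusted p under 0.05 there were 2 of 30 genes, Trim68 and Rtp4, or 6.67%, against 6.42% of all genes tested (3.24% higher and 3.18% lower). In 4 of 30 genes, or 13.3%, the groups did not overlap in CPM, against 12.6% of all genes (6.62% higher and 5.95% lower), with Trim68 higher and Rtp4, Slfn1 and Ifi204 lower in tunicamycin. These shares lie near the background, but the first depended on the libraries used. It was 7 of 31 genes without vehicle replicate 2 (22.6%, against 8.79% of all genes), 5 of 31 without tunicamycin replicate 1 (16.1%, against 6.70%) and 1 of 31 without tunicamycin replicate 2 (3.23%, against 3.66%) or vehicle replicate 3 (3.23%, against 6.54%). With the replicate number as a block it was 7 of 30 (23.3%, against 10.7%), and in DESeq2 5 of 42 (11.9%, against 4.26%). The DESeq2 share is over all genes of the set with counts. Its 5 genes include Tlr8, which failed the count filter and had all 18 of its counts in vehicle replicate 2. Log2 fold changes were above 0 for 19 of 30 genes (63.3%, against 50.1% of all genes tested), with a median of 0.09 against 0.001. The median was 0.01 without tunicamycin replicate 2, -0.002 without vehicle replicate 3 and 0.21 without vehicle replicate 2. Each of these fits kept the same-numbered library of the other group, so a difference tied to the replicate number enters them. With the replicate block the median was 0.09.

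Precision followed abundance. In the 17 genes that averaged 5 log2 CPM or more, the 95% interval of the fold change lay within a 2-fold change in either direction for 17 and within 1.5-fold for 14. Its median half-width was 0.23 log2 units in these and 0.99 in the 13 less abundant genes, where only large differences would be detectable.

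**Figure D1:**
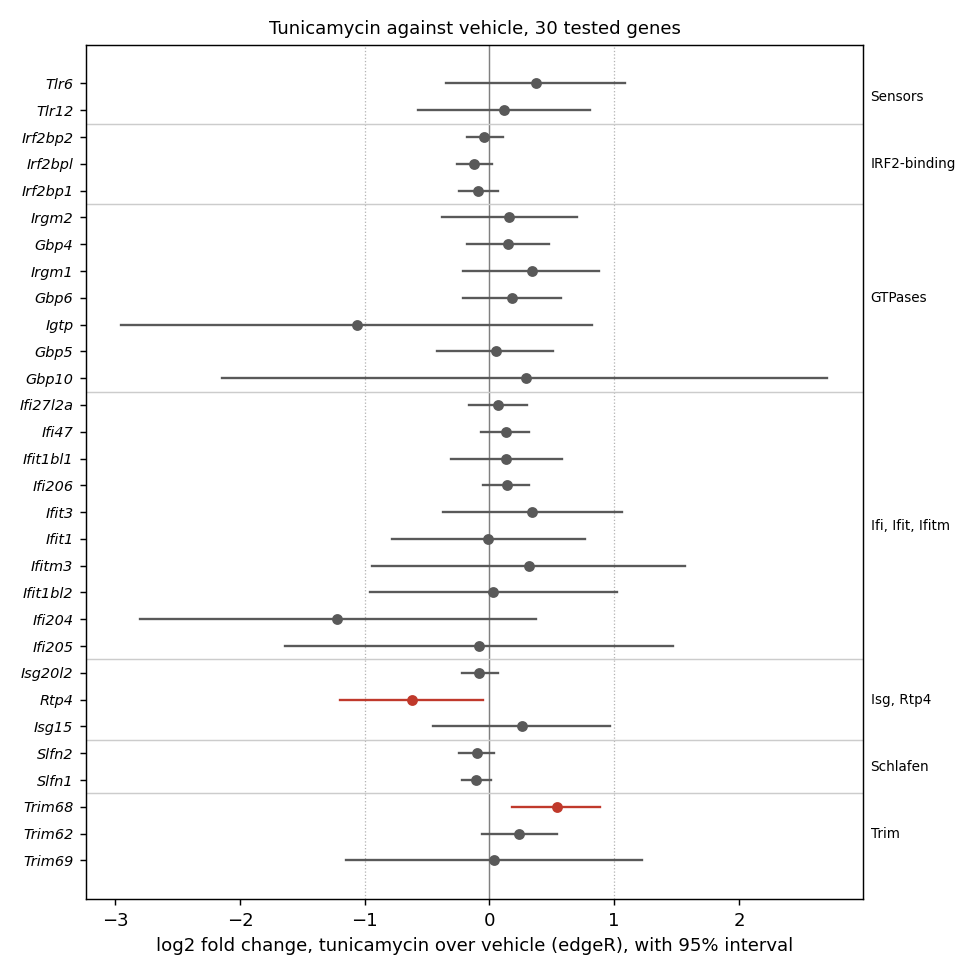
Log2 fold change of tunicamycin over vehicle from edgeR (x axis) for each of the 30 tested genes (y axis, grouped by family and ordered by level), with 3 libraries per group. Points are estimates and bars 95% intervals, dotted lines mark 2-fold changes, and the 2 genes with an unadjusted p under 0.05, Trim68 at 0.54 and Rtp4 at -0.62, are in red.

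The table held 5 of 14 annotated sensors, all Toll-like receptors with means under 2 TPM. Tlr6, which pairs with TLR2 to bind bacterial lipopeptides, had 3.66, 2.55 and 0.918 TPM in tunicamycin replicates 1, 2 and 3, against 0.769, 1.08 and 1.11 TPM in vehicle replicates 1, 2 and 3. In TPM, 2 tunicamycin libraries lay above all vehicle libraries and the third among them. Its counts were 135, 155 and 95 in tunicamycin, against 46, 76 and 97 in vehicle. On counts the change was 0.37 ± 0.33 log2 units (SE, 95% interval -0.35 to 1.09, edgeR adjusted p = 0.92). Over all settings it ran from 0.16 without vehicle replicate 1 to 1.19 with effective length offsets. With those offsets the edgeR unadjusted p was 0.033 and the adjusted p 0.62. TPM and the offsets use an estimated gene length in each library, and counts do not. Tlr12, which in mice recognises a profilin of protozoan parasites, had 1.43, 2.45 and 1.28 TPM in tunicamycin, against 1.10, 1.62 and 1.63 TPM in vehicle. Its groups overlapped, with a log2 fold change of 0.12 (95% interval -0.57 to 0.81) that fell to -0.28 without tunicamycin replicate 2. The other receptors with a row, Tlr8, Tlr11 and Tlr13, summed to 18, 3 and 31 counts over the 6 libraries and were not tested. For Tlr8 all 18 counts were in vehicle replicate 2, and for Tlr13 25 of 31 were in tunicamycin replicate 1.

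The IRF2-binding proteins, co-repressors named for their contact with the interferon regulatory factor IRF2, were abundant and varied little. Irf2bp2 had 50.2, 55.3 and 49.7 TPM in tunicamycin, against 44.1, 48.6 and 45.9 TPM in vehicle. Irf2bp1 had 26.6, 26.4 and 27.9 TPM in tunicamycin, against 23.5, 26.3 and 25.4 TPM in vehicle. Irf2bpl had 35.9, 31.8 and 35.7 TPM in tunicamycin, against 33.7, 30.5 and 33.0 TPM in vehicle. In TPM the groups of Irf2bp2 and Irf2bp1 did not overlap, with tunicamycin higher. On counts the log2 fold changes of Irf2bp2, Irf2bp1 and Irf2bpl were -0.04, -0.09 and -0.12, with intervals that included 0. The same genes were at 0.16, 0.10 and 0.09 in limma on log2(TPM + 1), where the median of all genes tested was 0.05, and at 0.10, 0.05 and 0.03 in edgeR with effective length offsets. Their direction therefore depends on the scale and none is given.

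The interferon-inducible GTPases were measured in 7 genes. Guanylate-binding proteins (Gbp) and immunity-related GTPases (Irgm1, Irgm2 and Igtp, also called Irgm3) are recruited to, or guard host membranes against, pathogen-containing vacuoles, and are classical targets of interferon gamma. None of the 7 passed the test. Log2 fold changes were above 0 for 6 of 7, against 50.1% of all genes tested, with a median of 0.16 against 0.001. Irgm2 had 33.0, 58.4 and 45.1 TPM in tunicamycin replicates 1, 2 and 3, against 35.8, 43.7 and 38.6 TPM in vehicle replicates 1, 2 and 3. The change was 0.16 log2 units (95% interval -0.38 to 0.70), and -0.04 without tunicamycin replicate 2. Irgm1 had 24.0, 43.3 and 29.3 TPM in tunicamycin, against 25.9, 26.8 and 20.9 TPM in vehicle. Tunicamycin replicate 2 was the highest, replicate 3 also lay above the vehicle libraries and replicate 1 lay among them, with a change of 0.34 ± 0.22 log2 units (SE; 95% interval -0.21 to 0.88, edgeR adjusted p = 0.89). The value was 0.09 without tunicamycin replicate 2 and 0.51 without tunicamycin replicate 1. Gbp4 had 27.0, 41.9 and 32.0 TPM in tunicamycin, against 32.8, 32.6 and 28.4 TPM in vehicle. The same library was again the highest, at a change of 0.15 log2 units (95% interval -0.18 to 0.48), which was 0.01 without it and 0.27 without tunicamycin replicate 1. Gbp6 and Gbp5, chosen for description after their values were seen like the other genes outside the naming rule, averaged 7.06 ± 1.47 and 3.54 ± 0.964 TPM in tunicamycin, against 6.50 ± 1.73 and 3.31 ± 0.723 TPM in vehicle (SD, n = 3 each). Their log2 fold changes were 0.18 and 0.05.

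Igtp stood apart from the other GTPases. It had 1.98, 3.25 and 2.98 TPM in tunicamycin replicates 1, 2 and 3, against 1.53, 10.9 and 4.19 TPM in vehicle replicates 1, 2 and 3. Vehicle replicate 2 alone carried 500 of its 1359 counts. The log2 fold change was -1.06 with an interval from -2.95 to 0.82, and it was -0.14 without vehicle replicate 2 and -1.51 without vehicle replicate 1. On chromosome 11 of GRCm38, Igtp (58199556 to 58207591) overlaps Irgm2 (58199618 to 58222782) on the same strand by 7974 bases, so the estimation can split reads between them and both values are uncertain. Their summed level was 48.2 ± 13.3 TPM in tunicamycin and 44.9 ± 8.82 TPM in vehicle (SD, n = 3 each). Gbp4, Gbp6 and Gbp10 also overlap other Gbp models or a predicted gene on chromosome 5, and Gbp10, between 0.0614 and 3.99 TPM, had the widest interval of the 30 genes (-2.14 to 2.71).

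**Figure D2:**
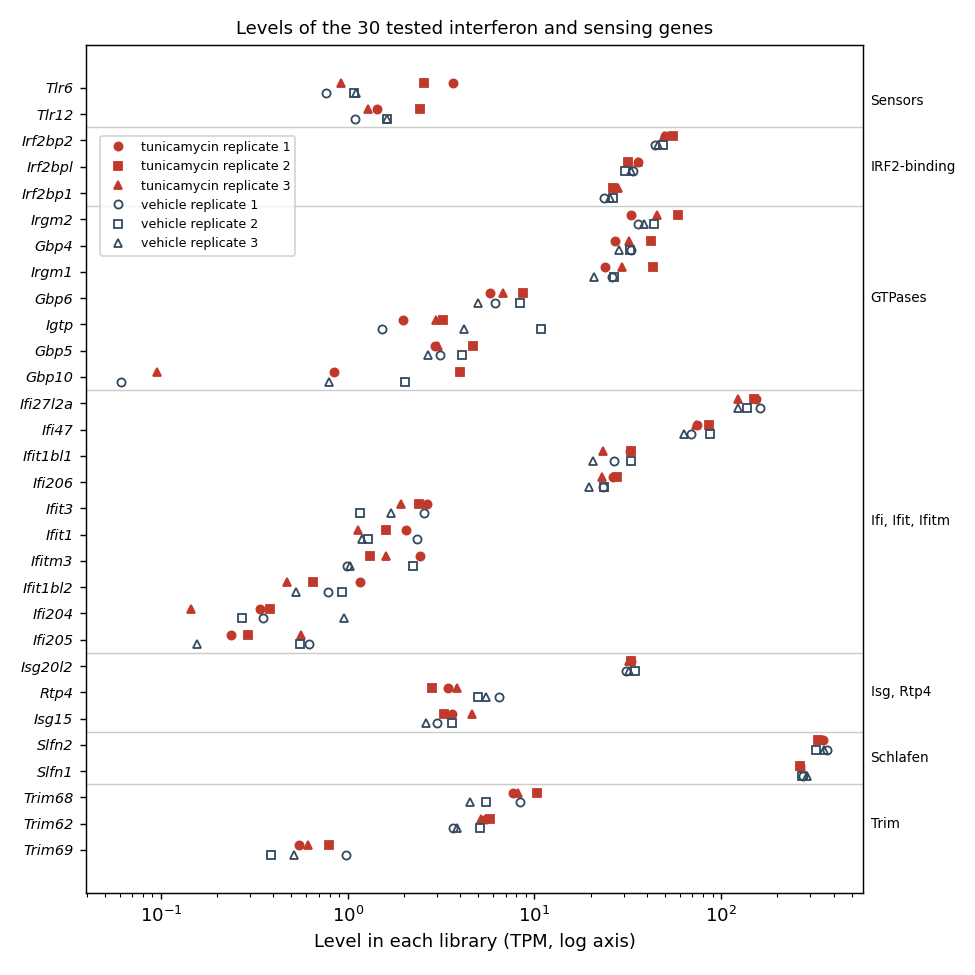
Level of each of the 30 tested genes in TPM (x axis, log scale) by gene (y axis, grouped by family), with tunicamycin as filled red and vehicle as open dark symbols, 1 symbol per library. Levels run from under 1 TPM to 371 TPM for Slfn2 in vehicle replicate 1, and the groups overlap for all but 5 genes, of which Irf2bp2, Irf2bp1 and Trim62 are higher and Rtp4 and Slfn1 lower in all 3 tunicamycin libraries.

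In both groups the GTPases were highest in the library numbered 2. By CPM, this held for 7 of 7 genes, against 15.2% of all genes tested, and by TPM for 6 of 7. The median deviation of the 7 genes from their own means over the 6 libraries was -0.22, 0.41 and 0.05 log2 units in tunicamycin replicates 1, 2 and 3, and -0.15, 0.24 and -0.28 in vehicle replicates 1, 2 and 3. The pattern was noticed in these data and has no test of its own. Of 21 tested pathway genes outside the symbol rule, 8 were highest in replicate 2 of both groups, 2 in replicate 1 of both and 2 in replicate 3 of both. Of the 8, Tgtp2, Socs3 and Ifng are given here, chosen after their values were seen. Tgtp2, another immunity-related GTPase, had 50.6, 92.2 and 59.9 TPM in tunicamycin, against 68.7, 82.4 and 57.2 TPM in vehicle. Socs3, a feedback inhibitor of cytokine receptors, had 32.6, 41.5 and 37.8 TPM in tunicamycin, against 31.2, 43.5 and 33.0 TPM in vehicle. Ifng, which encodes interferon gamma itself, was near the limit of detection, with 0.318, 0.643 and 0.372 TPM in tunicamycin, against 0, 2.60 and 0.119 TPM in vehicle. Summed markers of some other cell types were also highest in the libraries numbered 2. Plasma cell markers, with rows for 6 of 9, summed to 113, 198 and 26.4 TPM in tunicamycin, against 106, 187 and 22.8 TPM in vehicle. Macrophage and monocyte markers, with rows for 7 of 12, summed to 10.3, 12.9 and 6.45 TPM in tunicamycin, against 11.6, 13.2 and 4.08 TPM in vehicle. Neutrophil markers, with rows for 4 of 8, summed to 0.329, 1.38 and 0.166 TPM in tunicamycin, against 0.128, 2.07 and 0.356 TPM in vehicle, with Ly6g at 0. The single markers did not all follow these sums. Replicate 2 was the highest of both groups for 3 of 4 tested plasma cell markers, for 1 of 5 macrophage markers (Lyz2, which makes up most of that sum) and for 2 of 2 neutrophil markers, whereas Iglc1 and C1qa were highest in replicate 1 of both. Regulatory T cell markers had rows for 2 of 6, Il2ra and Il10. Il2ra, which encodes CD25, had 7.74, 14.1 and 10.7 TPM in tunicamycin, against 8.41, 8.38 and 6.87 TPM in vehicle. Il10 had 0.745, 1.02 and 0.776 TPM in tunicamycin, against 0.184, 0.495 and 1.57 TPM in vehicle, where replicate 3 was the highest. The part of these cells in the GTPase levels was not tested. In bulk RNA, more cells of a type and more transcript per cell cannot be told apart.

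**Figure D3:**
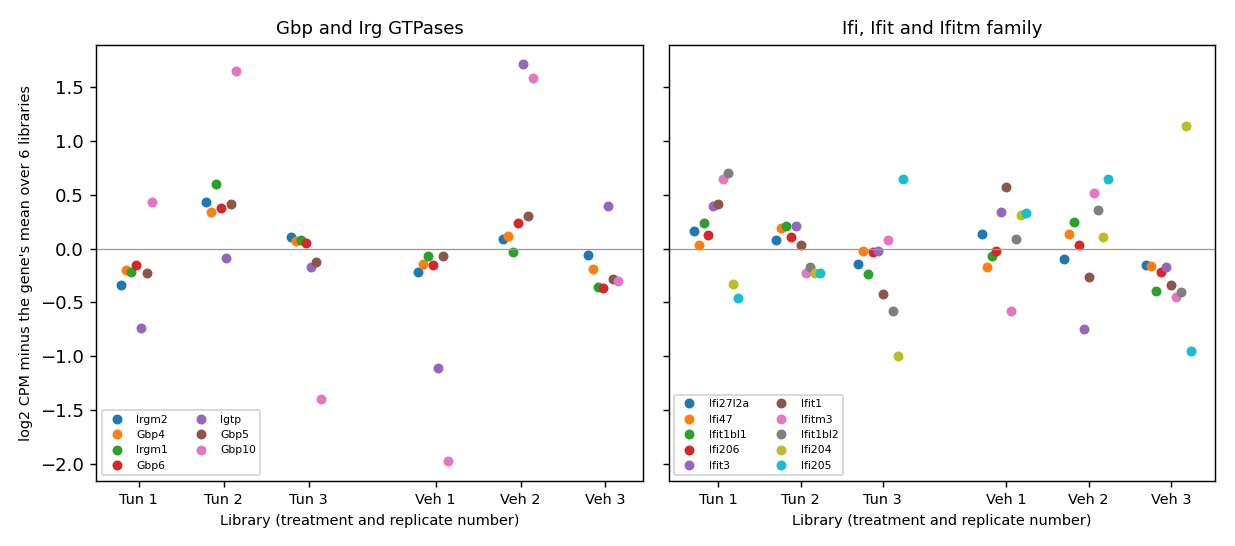
Deviation of each gene's log2 CPM from its own mean over 6 libraries (y axis) in each library (x axis, Tun for tunicamycin, Veh for vehicle, with replicate number), 1 point per gene. In the left panel the 7 GTPases are each highest in replicate 2 within both groups, and in the right panel 5 of 10 genes of the Ifi, Ifit and Ifitm family are lowest in replicate 3 of both groups.

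The Ifi, Ifit and Ifitm families gave 10 tested genes, with 0 past the threshold. Of these, 7 had log2 fold changes above 0, against 50.1% of all genes tested, with a median of 0.10 against 0.001. Ifi27l2a, an interferon-induced small membrane protein, was the most abundant, with 153, 149 and 123 TPM in tunicamycin replicates 1, 2 and 3, against 162, 137 and 123 TPM in vehicle replicates 1, 2 and 3. Its groups coincided (log2 fold change 0.07, 95% interval -0.16 to 0.30), and with effective length offsets it was at -0.05. Ifi47, itself an immunity-related GTPase despite its name, had 74.1, 86.0 and 73.6 TPM in tunicamycin, against 68.6, 86.7 and 63.5 TPM in vehicle. Its model overlaps that of Olfr56 on the same strand, which leaves the value uncertain. Like the GTPases above it was highest in the libraries numbered 2, with a log2 fold change of 0.13 (95% interval -0.07 to 0.32). Ifit1bl1, related to the RNA-binding Ifit1, had 32.5, 32.7 and 23.2 TPM in tunicamycin, against 26.8, 32.9 and 20.6 TPM in vehicle. The library numbered 3 was the lowest of both groups, at a change of 0.13 log2 units (95% interval -0.31 to 0.58).

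Ifi206, of the p200 family of nucleic acid-binding proteins, had 26.3, 27.6 and 23.1 TPM in tunicamycin, against 23.3, 23.6 and 19.5 TPM in vehicle. Its log2 fold change was 0.14 (95% interval -0.05 to 0.32), above 0 under all 17 alternatives, with an unadjusted p under 0.05 in 0 of them. Ifit1, which binds RNA lacking the host cap, had 2.06, 1.61 and 1.14 TPM in tunicamycin, against 2.35, 1.28 and 1.19 TPM in vehicle. Ifit3, its partner, had 2.66, 2.41 and 1.94 TPM in tunicamycin, against 2.56, 1.17 and 1.71 TPM in vehicle. Both were low and their groups overlapped, at log2 fold changes of -0.01 (95% interval -0.78 to 0.77) and 0.34 (95% interval -0.37 to 1.06). The remaining tested genes, Ifit1bl2, Ifitm3, Ifi204 and Ifi205, had means under 2 TPM, with log2 fold changes between -1.22 and 0.32. Ifi204 rested on 91 counts in all, of which 32 were in vehicle replicate 3. By CPM the library numbered 3 was the lowest of both groups for 5 of the 10 genes, against 11.5% of all genes tested, and by TPM for 6. The summed plasma cell and macrophage markers given above were also lowest there. So were the CD4 T cell markers, with rows for 5 of 13. They summed to 3869, 3819 and 3713 TPM in tunicamycin, against 3853, 3699 and 3627 TPM in vehicle. Singly, 2 of 5 tested CD4 T cell markers were lowest in replicate 3 of both groups. Erythroid and platelet markers, with rows for 7 of 8, summed to 7.77, 6.93 and 2.31 TPM in tunicamycin, against 11.4, 12.4 and 3.28 TPM in vehicle. The part of these cells in the family's pattern was not tested. Ifitm5, Ifitm6 and Ifitm7 had 1, 15 and 7 counts, all in tunicamycin libraries, and Ifi44l had 0. These close relatives share sequence, so their separate values are uncertain.

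Among the single effectors, Isg15, a ubiquitin-like protein that is conjugated to others in the interferon response, was low. It had 3.61, 3.26 and 4.63 TPM in tunicamycin, against 3.02, 3.63 and 2.62 TPM in vehicle. The groups overlapped, with a log2 fold change of 0.26 (95% interval -0.45 to 0.97, edgeR adjusted p = 0.95). The value was 0.08 without tunicamycin replicate 3 and 0.38 without tunicamycin replicate 2 or vehicle replicate 2. Rtp4, an interferon-induced antiviral protein that also chaperones some cell surface receptors, was the clearest of the lower genes. It had 3.45, 2.82 and 3.83 TPM in tunicamycin, against 6.45, 4.97 and 5.48 TPM in vehicle. All 3 tunicamycin libraries lay under all 3 vehicle libraries, at 3.36 ± 0.510 and 5.63 ± 0.750 TPM (SD, n = 3 each). Its log2 fold change was -0.62 with an SE of 0.26, which missed the threshold (edgeR adjusted p = 0.71, range 0.35 to 1.0 over all settings) and ran from -0.80 to -0.47. The gene model (chromosome 16, 23520291 to 23614222) is overlapped by a processed transcript on the same strand. Isg20l2, a nucleolar exonuclease named for its similarity to Isg20, was steady, with 32.9, 32.8 and 32.0 TPM in tunicamycin, against 31.0, 34.4 and 32.1 TPM in vehicle, and an interval of -0.22 to 0.07. Of the oligoadenylate synthetase genes, Oas1e had 32 counts and Oas1f had 0.

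The Schlafen genes were the most abundant of all 56. Slfn1 and Slfn2 lie near each other on chromosome 11, and Slfn2 is required in mice for the quiescence of resting T cells. Slfn2 had 349, 329 and 336 TPM in tunicamycin, against 371, 323 and 354 TPM in vehicle, and ranked 80 of 3613 genes tested by mean TPM. The groups overlapped (log2 fold change -0.10, 95% interval -0.24 to 0.04). Slfn1 had 263, 265 and 268 TPM in tunicamycin, against 276, 272 and 288 TPM in vehicle. Its groups did not overlap, but the difference was small, at -0.11 with an SE of 0.05 (95% interval -0.22 to 0.01, edgeR adjusted p = 0.83). Over all settings Slfn1 stayed between -0.13 and -0.06 and Slfn2 between -0.16 and -0.05. Slfnl1 had 25 counts and Slfn14 had 0.

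The Trim genes encode tripartite motif proteins, many of them ubiquitin ligases and some of them regulators of antiviral signalling. Of 18 with a row, 11 had 0 counts in every library, 4 had at most 17 counts and 3 were tested. Trim68 had the smallest unadjusted p of the 30 genes (0.0064 in edgeR). It had 7.70, 10.3 and 8.13 TPM in tunicamycin, against 8.37, 5.51 and 4.54 TPM in vehicle. By CPM all 3 tunicamycin libraries lay above all 3 vehicle libraries, whereas in TPM vehicle replicate 1 lay within the tunicamycin range. Its log2 fold change was 0.54 with an SE of 0.16 (95% interval 0.18 to 0.89), which missed the threshold (edgeR adjusted p = 0.44, range 0.16 to 1.0 over all settings). Trim62 had 5.53, 5.75 and 5.15 TPM in tunicamycin, against 3.66, 5.14 and 3.87 TPM in vehicle. In TPM its groups narrowly did not overlap, and in CPM they did. The log2 fold change was 0.24 (95% interval -0.06 to 0.54, edgeR adjusted p = 0.84). It was 0.41 without vehicle replicate 2 (edgeR adjusted p = 0.32) and 0.14 without vehicle replicate 1. Trim69, which overlaps Patl2 on the opposite strand, had a mean under 1 TPM and an interval of -1.15 to 1.22.

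**Figure D4:**
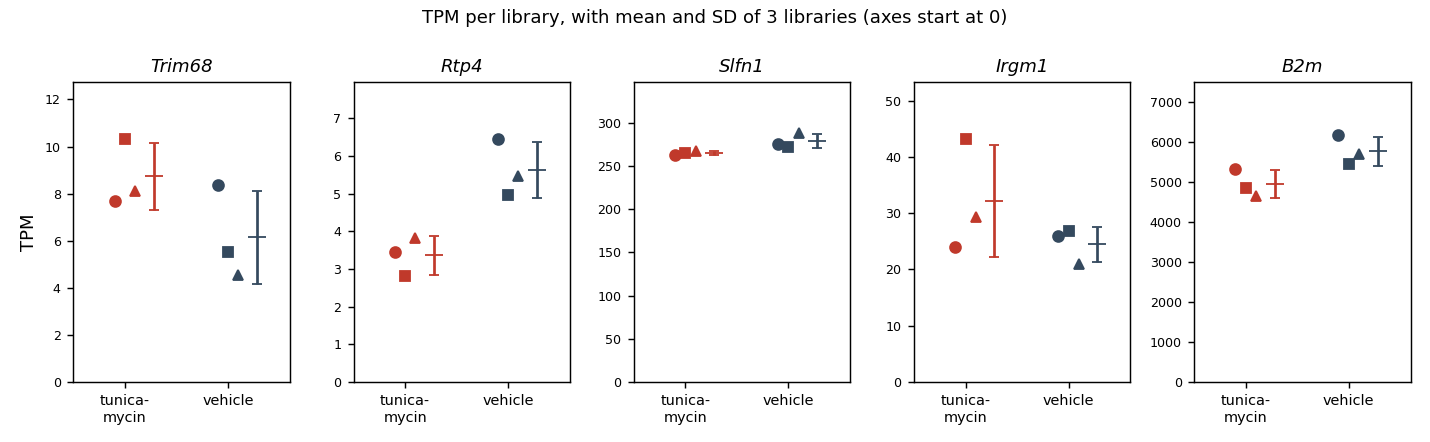
TPM per library (y axis, from 0) in tunicamycin and vehicle for Trim68, Rtp4, Slfn1, Irgm1 and B2m, with circles, squares and triangles for replicates 1, 2 and 3 and bars for the mean and SD of 3 libraries. Rtp4, Slfn1 and B2m are lower in all 3 tunicamycin libraries, and Irgm1 is highest in tunicamycin replicate 2, with tunicamycin replicate 3 also above the vehicle libraries.

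Other genes of the pathway were read from lists, and listed genes without a row were not analysed here. No listed gene passed the edgeR threshold. For interferon ligands, 16 of 19 genes had 0 counts in every library and only Ifng was tested (log2 fold change -0.57, 95% interval -3.22 to 2.08). Of receptor and signalling genes, 0 of 3 tested passed. Ifngr2, a chain of the interferon gamma receptor, had 81.1, 76.6 and 91.0 TPM in tunicamycin, against 80.8, 81.6 and 81.8 TPM in vehicle. Of sensing adaptors and kinases, 0 of 5 passed. Tbk1, the kinase that activates IRF3, had 58.0, 67.4 and 59.0 TPM in tunicamycin, against 41.4, 53.2 and 57.9 TPM in vehicle. In TPM its groups did not overlap, with tunicamycin higher, and limma on log2(TPM + 1) gave 0.28. On counts they overlapped, at 0.12 (95% interval -0.03 to 0.28), and the value ran from 0.08 to 0.28 over all settings. Ticam1, the TRIF adaptor of TLR3 and TLR4, was at -0.23 (95% interval -0.45 to -0.01, edgeR adjusted p = 0.72).

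Of 8 other interferon-induced genes tested, 0 passed. All 8 had log2 fold changes above 0, against 50.1% of all genes tested, with a median of 0.20 against 0.001. Ccl5, a chemokine of cytotoxic and memory lymphocytes, had 71.6, 72.5 and 57.6 TPM in tunicamycin, against 46.8, 62.6 and 40.7 TPM in vehicle. Its log2 fold change was 0.40 with an SE of 0.15 (edgeR adjusted p = 0.61), and 0.58 without vehicle replicate 2. NK and cytotoxic cell markers, with rows for 6 of 10, are given beside it. They summed to 17.4, 19.1 and 12.4 TPM in tunicamycin, against 11.7, 10.3 and 11.8 TPM in vehicle, so the sum was higher in tunicamycin. None of the 5 tested markers passed. All 5 had log2 fold changes above 0, against 50.1% of all genes tested, with a median of 1.11. Prf1, the most abundant of them, was at 0.02 log2 units. Gzma, Gzmb, Klre1 and Klra8 were at 1.15, 0.72, 1.11 and 2.06, with means of 3.33, 1.12, 1.06 and 0.483 TPM. The part of these cells in the Ccl5 level was not tested. Tgtp2, whose levels are given above, was at 0.18 log2 units (95% interval -0.45 to 0.80), which turned to -0.07 in limma on log2(TPM + 1). It was also below 0 with effective length offsets (-0.10) and without tunicamycin replicate 2 (-0.06).

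Of 4 antigen presentation genes, 0 passed in the main edgeR test and 1, B2m, was called by DESeq2. DESeq2 called 0.516% of the 4266 genes to which it gave an adjusted p. B2m, the light chain of MHC class I, had 5322, 4845 and 4637 TPM in tunicamycin, against 6162, 5446 and 5698 TPM in vehicle. All 3 tunicamycin libraries lay under all 3 vehicle libraries. The log2 fold change was -0.27 with an SE of 0.07 (95% interval -0.42 to -0.12, edgeR adjusted p = 0.36), and -0.27 in DESeq2 (adjusted p = 0.0034). It stayed between -0.33 and -0.23 over all settings, and its adjusted p ran from 0.0019 with the replicate block to 1.0 without tunicamycin replicate 2. In edgeR it also passed when every row with at least 1 count was kept (adjusted p = 0.028), and it missed the threshold with the block and effective length offsets together (adjusted p = 0.078).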

How the data were processed

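RNA of 6 libraries was sequenced as paired reads of 150 bp from 200 ng of total RNA, per the labels' protocols. The authors deposited estimated counts and TPM per gene, and Salmon, bcl2fastq, DESeq2 and the build GRCm39 appear, without roles or versions, in the submitters' processing notes. Which transcript annotation served is not given in the sources used here. TPM as deposited add up to 319120 to 332870 in each library, so the table covers part of the transcriptome and count totals are not library depths. Symbols were matched for 13627 of 13685 identifiers with GENCODE M21 (GRCm38), whose positions are given unconverted. Members and lists were chosen with earlier results of these data known. Counts were rounded, filtered with filterByExpr and TMM-scaled, then tested in R 4.3.3 with edgeR 4.0.16. The test was the robust quasi-likelihood F test, 2-sided, with no covariates and Benjamini-Hochberg adjustment over all 3613 genes. The procedure was tested on simulated data, drawn as independent libraries without a replicate effect. Intervals are 95% intervals, and log2 CPM was computed with prior count 2. Alternatives were other scalings and filters, DESeq2 1.42.0, limma 3.58.1 on log2(TPM + 1) and log2(TPM + 0.1), effective length offsets, a replicate block and each library left out. The naming rule took genes past the threshold, genes with an unadjusted p under 0.05, and by mean TPM the first 3 tested genes of each family and the first of each pathway list.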

Additional observations from a re-analysis of the deposited data

How the results depend on the processing

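None of the interferon and sensing genes was called in the main test or under any of the 17 alternatives, and their lowest adjusted p was 0.16, for Trim68 with the replicate block. The number of all genes called was 3 in the main test, 16 with every row that had at least 1 count, 1 with at least 10 counts in every library, 22 in DESeq2, 1 in limma on log2(TPM + 1), 36 with the replicate block and 6 when that block was joined to effective length offsets. These split into 2 higher and 1 lower in the main test, 2 and 2 with DESeq2 size factors, 2 and 0 without a composition factor or with effective length offsets, 10 and 12 in DESeq2, and 14 and 22 with the block. Leaving out each library gave 1 to 5 genes, and a median log2 fold change of the 30 genes from -0.002 to 0.21, against 0.09. Same-numbered libraries correlated at 0.0371, 0.187 and 0.107 in their deviations over 3613 genes. Libraries of unlike number correlated between -0.133 and 0.028, under every same-numbered pair. The library names give each tunicamycin library the number of a vehicle library, without saying what the number marks. For that reason, and because the first pair missed the threshold of 0.1, the main fit was left unpaired. Its p-values and intervals therefore make no allowance for the replicate number. If same-numbered libraries share an origin, which the labels do not state, the fit with the block is the fitting one. The cause of the differences between settings was not tested. Of 26 named genes, 12 changed sign somewhere. In limma on log2(TPM + 1) and log2(TPM + 0.1), Irf2bp1 was at 0.10 and 0.11, Irf2bp2 at 0.16 and 0.16, Irf2bpl at 0.09 and 0.09, Isg20l2 at 0.004 in both, Ifngr2 at 0.02 in both, Tgtp2 at -0.07 in both, and Ifng at 0.44 in the second. With effective length offsets, without and with the block, Irf2bp1 was at 0.05, Irf2bp2 at 0.10, Irf2bpl at 0.03 and Ifi27l2a at -0.05 in both, and Tgtp2 at -0.10 and -0.13. Ifng was at 0.80 with the block and at 0.72 with the block and offsets. Irf2bp2 was at 0.01 without a composition factor. Without tunicamycin replicate 2, Irgm2 was at -0.04, Tgtp2 at -0.06, Tlr12 at -0.28 and Trim69 at -0.11. Without vehicle replicate 2, Ifng was at 2.68, Irf2bp2 at 0.01 and Trim69 at -0.21. Without vehicle replicate 3, Ifit1bl1 was at -0.01 and Trim69 at -0.08, and without vehicle replicate 1, Tlr12 was at -0.06. With single libraries left out, the highest values were 0.31 for Ifit1bl1, 0.34 for Irgm2, 0.33 for Tgtp2, 0.32 for Tlr12 and 0.48 for Trim69, and the lowest for Ifng was -1.15.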
